A study of Mus musculus with 22 samples.

Results

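The Toll-like receptor genes Tlr1, Tlr2, Tlr3, Tlr4, Tlr7, Tlr8, Tlr9 and Tlr13, the chaperone gene Unc93b1 and the adaptor gene Myd88 were followed in mouse sensory ganglia and in cells cultured from them. The genes were chosen by symbol, and 10 of 10 symbols matched 1 Ensembl gene each among the 55487 genes of the count tables. Bulk RNA was sequenced from dorsal root ganglia (the clusters of sensory neuron cell bodies beside the spinal cord) and from cultures labelled as dorsal root ganglion neurons. The ganglia came from 4 groups: Postn knock out (KO) mice given imiquimod (IMQ) for 5 days (n = 2), KO mice given vehicle for 5 days (n = 3), wild-type (WT) mice given IMQ for 5 days (n = 2) and WT mice given vehicle for 5 days (n = 3). The cultures came from 4 groups of 3 libraries, all with a culture time of 72 h. These were KO cells with recombinant POSTN protein (rPOSTN), KO control cells, WT cells with rPOSTN and WT control cells. Postn encodes periostin, a secreted matrix protein. The labels do not give the age or strain of the mice, the IMQ dose or skin site, the kind of Postn allele, or how many animals a library came from, so p-values measure only the spread between these libraries.

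Toll-like receptors are membrane proteins of innate immunity that bind microbial lipids, proteins or nucleic acids. TLR1, TLR2 and TLR4 sit at the cell surface, whereas TLR3, TLR7, TLR8, TLR9 and TLR13 read nucleic acids inside endosomes, to which the chaperone UNC93B1 delivers them. All of these except TLR3 signal through the adaptor MyD88, macrophages are rich in many of them, and imiquimod is a small-molecule agonist of TLR7.

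Total counts ran between 16666489 and 24118303 per library, and values are given as CPM, the counts of a gene scaled to a common library total within each deposited table. Postn itself had 7.43 and 4.38 CPM in KO IMQ ganglia, against 49.7 and 43.3 CPM in WT IMQ ganglia. In vehicle ganglia Postn had 3.89, 3.39 and 5.06 CPM in KO libraries, against 20.9, 26.3 and 21.3 CPM in WT libraries. KO ganglia thus held reads of the targeted gene at a lower level in both treatments. In cultures Postn had 83.5, 71.8 and 456 CPM in KO rPOSTN libraries, against 988, 975 and 678 CPM in WT rPOSTN libraries, and 111, 108 and 409 CPM in KO control libraries, against 949, 895 and 691 CPM in WT control libraries. The third libraries labelled KO thus held far more Postn reads than the other 4, and the KO culture results are given below with and without them. The second WT IMQ library was the one ganglion library with Xist near 0 (0.176 CPM) and with Y-linked reads above 0.178 CPM (139 CPM summed over 4 genes), whereas the other 9 had 196 to 236 CPM of Xist. It is therefore a male library among female ones, and sex and library cannot be told apart within that group of 2. Tlr7, Tlr8 and Tlr13 lie on the X chromosome, and each was lower in that library than in the first WT IMQ library. Of the autosomal genes, Unc93b1 and Myd88 were also lower there, and Tlr1, Tlr2, Tlr3, Tlr4 and Tlr9 were higher. The part of sex in these differences was not tested. The first and the second WT cultures were male in both treatments (Xist at or below 0.826 CPM) and the third female (1180 CPM or more, no Y-linked reads). Every KO culture had both Xist (603 to 1250 CPM) and Y-linked reads (47.0 to 102 CPM), hence cells of both sexes, and the third KO cultures had the most Y-linked reads among them.

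The upstream sequences of 3 genes that were low in vehicle ganglia are shown here, because their windows hold at most 5 bases of annotated exon of the same gene. RefSeq promoter tables (build GRCm38.p6) gave 8 windows for 7 of the 10 genes. Each line below runs 5′ to 3′ on the gene's strand and ends at or just before the gene start. Capitals mark GAGGAA, letters bound by the ETS factor PU.1, or TTCCTC, the same letters read on the other strand. The windows are chr5:64933564-64933808 on the minus strand for Tlr1, chrX:167264330-167264579 on the minus strand for Tlr8 and chr9:106222348-106222597 on the plus strand for Tlr9.
Tlr1: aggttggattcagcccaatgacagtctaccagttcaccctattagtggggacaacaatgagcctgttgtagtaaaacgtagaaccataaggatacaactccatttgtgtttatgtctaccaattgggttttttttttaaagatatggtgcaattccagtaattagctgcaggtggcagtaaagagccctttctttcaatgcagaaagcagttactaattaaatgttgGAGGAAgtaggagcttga
Tlr8: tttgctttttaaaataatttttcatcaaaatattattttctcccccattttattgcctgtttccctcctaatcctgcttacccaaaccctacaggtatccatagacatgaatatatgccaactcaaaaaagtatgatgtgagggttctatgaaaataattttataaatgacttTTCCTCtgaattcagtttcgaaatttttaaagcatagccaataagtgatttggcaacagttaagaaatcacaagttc
Tlr9: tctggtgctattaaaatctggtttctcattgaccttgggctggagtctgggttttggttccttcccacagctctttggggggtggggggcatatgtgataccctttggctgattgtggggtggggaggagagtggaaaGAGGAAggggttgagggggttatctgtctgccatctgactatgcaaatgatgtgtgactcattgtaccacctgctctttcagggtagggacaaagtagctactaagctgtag
GAGGAA on either strand was found in 4 of the 8 windows of 250 bases (those of Tlr8, Tlr9 and Tlr13 and 1 of the 2 of Tlr1), and in 23.3% of all 32851 windows of that length. The windows end at RefSeq gene starts, and 5 of the 8 reach into the gene as GENCODE M21 places it: those of Tlr3 and Myd88 and the other Tlr1 window lie wholly inside it, the Tlr2 window by 159 bases and the Tlr13 window by 71 bases. A match describes letters in a window and not a bound site.

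In the ganglia, 6 of the 10 genes were higher with IMQ in KO mice (Tlr1, Tlr2, Tlr7, Tlr8, Tlr13 and Unc93b1) and 4 of 10 in WT mice (Tlr1, Tlr2, Tlr13 and Unc93b1), at an adjusted p under 0.05 by edgeR's quasi-likelihood test over 17197 genes. No gene of the 10 was lower at that threshold. The WT IMQ group holds the male library, its second, so sex and treatment are mixed in the WT comparison. Without that library the WT log2 differences were 2.46 for Tlr1, 1.47 for Tlr2, 1.48 for Tlr13 and 1.81 for Unc93b1. Among all genes tested, 1.1% were called in KO ganglia (1.09% higher and 0.0174% lower) and 1.3% in WT ganglia (1.12% higher and 0.18% lower). The median log2 difference of the 10 genes was 1.47 in KO ganglia and 1.5 in WT ganglia, beside -0.00543 and -0.0081 over all genes. The IMQ libraries lay above every vehicle library for 10 of 10 genes in KO ganglia and 8 of 10 in WT ganglia, where 12.3% and 11.4% of all genes did so. In bulk tissue, more cells of a type and more RNA per cell cannot be told apart.

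**Figure D1:**
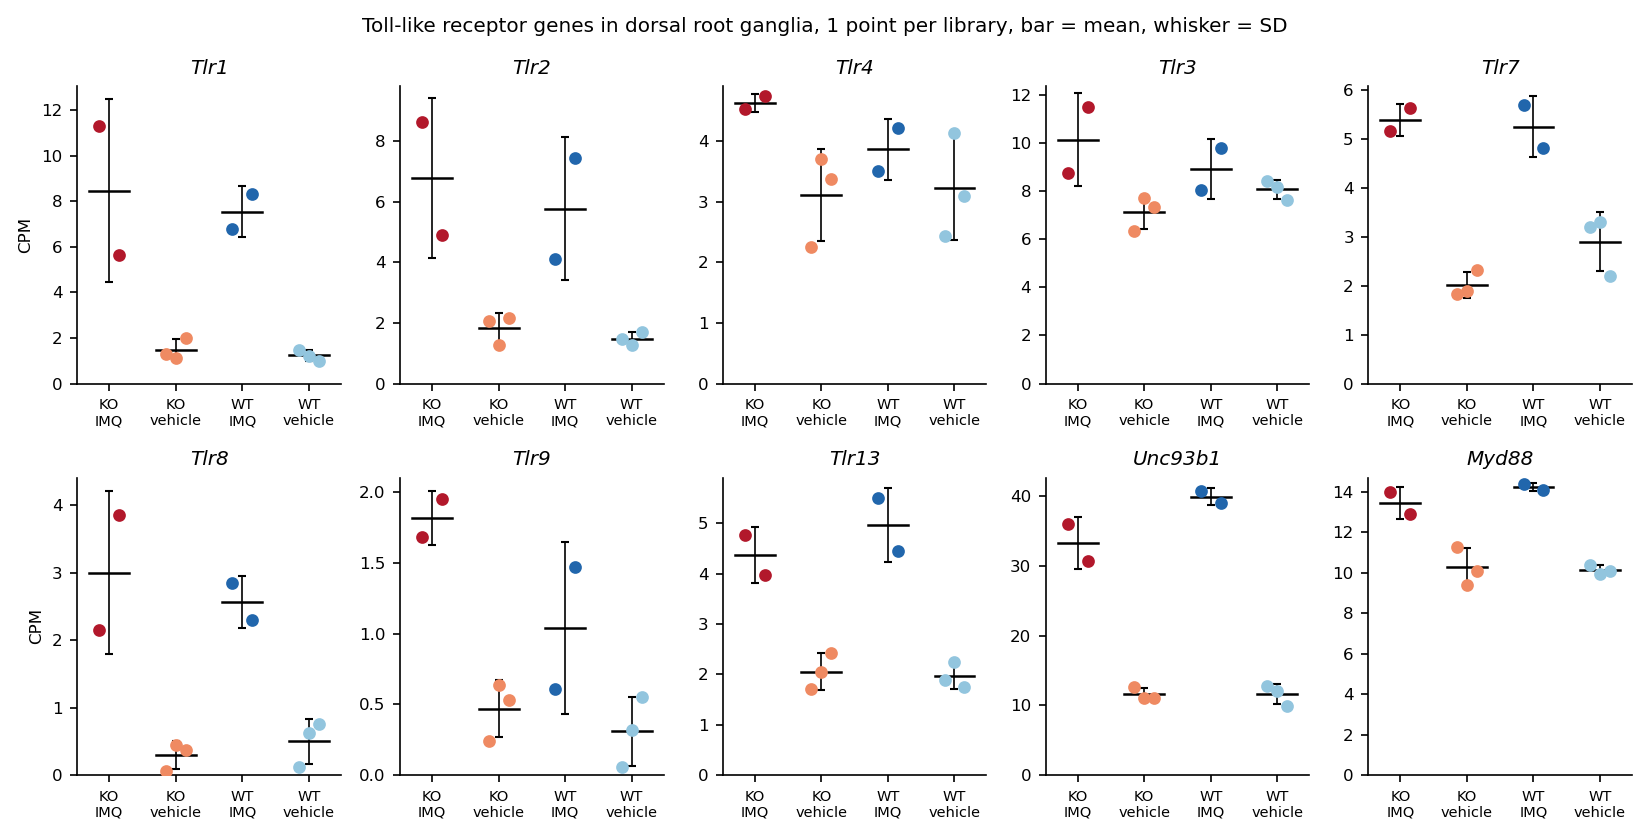
CPM of each gene (y axis, one scale per panel) in KO IMQ, KO vehicle, WT IMQ and WT vehicle ganglia, with 1 point per library, the bar at the mean and the whisker showing the SD. The IMQ points of Tlr1, Tlr8 and Unc93b1 stand clear of the vehicle points in both genotypes, whereas those of Tlr3 and Tlr4 overlap them in WT ganglia.

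Among the surface receptors, Tlr1 and Tlr2 rose in both genotypes. Tlr1, whose product pairs with TLR2 to bind bacterial lipopeptides, had 11.3 and 5.62 CPM in KO IMQ ganglia, against 1.28, 1.13 and 2.0 CPM in KO vehicle ganglia. It had 6.76 and 8.32 CPM in WT IMQ ganglia, against 1.48, 1.21 and 1.0 CPM in WT vehicle ganglia. Every IMQ library lay above every vehicle library, and the KO IMQ libraries were the farther apart. The log2 difference of Tlr1 was 2.53 ± 0.33 (SE, edgeR adjusted p = 0.00621) in KO ganglia and 2.62 ± 0.34 (edgeR adjusted p = 0.00461) in WT ganglia. Tlr1 and Tlr6 are close paralogs, so reads could be split between them; Tlr6 itself differed by 0.79 ± 0.39 in KO and 0.89 ± 0.40 in WT ganglia, with edgeR adjusted p of 0.627 and 0.692. Without the first KO IMQ library the edgeR adjusted p of Tlr1 was 0.0707, and without the second WT IMQ library it was 0.0561. Leaving out any other single library kept the call.

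Tlr2, the partner of TLR1 and TLR6, had 8.64 and 4.91 CPM in KO IMQ ganglia, against 2.07, 1.27 and 2.16 CPM in KO vehicle ganglia. It had 4.11 and 7.44 CPM in WT IMQ ganglia, against 1.48, 1.26 and 1.70 CPM in WT vehicle ganglia. The groups did not overlap, yet within each genotype one IMQ library was well above the other. The log2 difference was 1.90 ± 0.34 (edgeR adjusted p = 0.0319) in KO ganglia and 1.95 ± 0.35 (edgeR adjusted p = 0.0267) in WT ganglia. These calls rested on single libraries. In KO ganglia the call held without the second IMQ library (edgeR adjusted p = 0.036) and was lost without any of the other 4, where the edgeR adjusted p was 0.396 without the first IMQ library and 0.059, 0.0865 and 0.102 without the first, the second and the third vehicle library. In WT ganglia it held without the first IMQ library (edgeR adjusted p = 0.0357) and was lost without any of the other 4, at 0.308 without the second IMQ library and 0.0821, 0.124 and 0.0958 without the first, the second and the third vehicle library.

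Tlr4, the lipopolysaccharide receptor, had 4.53 and 4.74 CPM in KO IMQ ganglia, against 2.25, 3.71 and 3.37 CPM in KO vehicle ganglia. It had 3.51 and 4.22 CPM in WT IMQ ganglia, against 2.43, 4.14 and 3.10 CPM in WT vehicle ganglia. The WT groups overlapped and the KO groups did not. Its log2 difference of 0.56 ± 0.26 in KO ganglia (edgeR adjusted p = 0.61) and 0.25 ± 0.27 in WT ganglia (edgeR adjusted p = 1) did not pass the test.

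Among the endosomal receptors, Tlr7, which encodes the receptor for single-stranded RNA that imiquimod activates, had 5.16 and 5.62 CPM in KO IMQ ganglia, against 1.82, 1.90 and 2.32 CPM in KO vehicle ganglia. It had 5.69 and 4.81 CPM in WT IMQ ganglia, against 3.19, 3.30 and 2.2 CPM in WT vehicle ganglia. All 4 IMQ libraries were higher than all 6 vehicle libraries, and the IMQ levels of the 2 genotypes overlapped. Tlr7 rose in KO ganglia by 1.42 ± 0.22 on the log2 scale (edgeR adjusted p = 0.0126), a 2.67-fold difference. The WT log2 difference of 0.86 ± 0.21 did not pass (edgeR adjusted p = 0.124). The difference between these effects was itself tested and was 0.56 ± 0.30 (edgeR adjusted p = 0.999). The KO call was lost without the first IMQ library (edgeR adjusted p = 0.0948) or the second (0.106).

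Tlr8, the neighbour of Tlr7 on the X chromosome and also a receptor for RNA, had 2.15 and 3.85 CPM in KO IMQ ganglia, against 0.0607, 0.452 and 0.369 CPM in KO vehicle ganglia. It had 2.84 and 2.29 CPM in WT IMQ ganglia, against 0.118, 0.629 and 0.751 CPM in WT vehicle ganglia. These vehicle levels rest on 18 counts over the 3 KO libraries and 29 over the 3 WT libraries. The groups did not overlap in either genotype. The log2 difference was 3.25 ± 0.60 in KO ganglia (edgeR adjusted p = 0.0342) and 2.31 ± 0.56 in WT ganglia (edgeR adjusted p = 0.121). The KO call held without the first vehicle library (edgeR adjusted p = 0.0492) and was lost without the second (0.0573), the third (0.14), the first IMQ library (0.0947) or the second (0.275). It was also lost when only the KO groups were fitted (edgeR adjusted p = 0.112). The WT difference passed under 3 of the 11 alternatives, at an adjusted p of 0.0112 with DESeq2, 0.0444 in edgeR with no filter on low counts and 0.0367 in edgeR with the replicate number as a block.

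Tlr13, which in mice recognises bacterial ribosomal RNA, had 4.76 and 3.97 CPM in KO IMQ ganglia, against 1.70, 2.04 and 2.42 CPM in KO vehicle ganglia. It had 5.49 and 4.45 CPM in WT IMQ ganglia, against 1.89, 2.25 and 1.75 CPM in WT vehicle ganglia. The IMQ libraries stood above the vehicle libraries in both genotypes with little spread inside the groups. The log2 difference was 1.08 ± 0.21 (edgeR adjusted p = 0.0489) in KO ganglia and 1.34 ± 0.21 (edgeR adjusted p = 0.014) in WT ganglia. The KO call was lost without any 1 of the 5 libraries, at edgeR adjusted p of 0.477 and 0.142 without the first and second IMQ library and 0.119, 0.115 and 0.0851 without the first, the second and the third vehicle library. The WT call was lost without the first IMQ library (0.163), the second (0.0599) or the third vehicle library (0.0794).

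Tlr9, the receptor for unmethylated CpG DNA, was, per kb of exon, the lowest of the 8 receptor genes in every ganglion group except KO vehicle. There Tlr8 was lower. It had 1.68 and 1.95 CPM in KO IMQ ganglia, against 0.243, 0.633 and 0.527 CPM in KO vehicle ganglia. It had 0.61 and 1.47 CPM in WT IMQ ganglia, against 0.0592, 0.315 and 0.551 CPM in WT vehicle ganglia. The lower WT IMQ library barely exceeded the highest WT vehicle library. The log2 difference of 1.91 ± 0.56 in KO ganglia (edgeR adjusted p = 0.279) and of 1.67 ± 0.63 in WT ganglia (edgeR adjusted p = 0.498) did not pass.

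Tlr3, the receptor for double-stranded RNA, which signals through TRIF in place of MyD88, showed the smallest log2 difference in WT ganglia. It had 8.76 and 11.5 CPM in KO IMQ ganglia, against 6.32, 7.69 and 7.32 CPM in KO vehicle ganglia. It had 8.03 and 9.79 CPM in WT IMQ ganglia, against 8.40, 8.18 and 7.61 CPM in WT vehicle ganglia. One WT IMQ library lay within the vehicle range. The log2 difference was 0.51 ± 0.17 in KO ganglia (edgeR adjusted p = 0.383) and 0.14 ± 0.17 in WT ganglia (edgeR adjusted p = 1).

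Unc93b1, the chaperone gene, had 36.0 and 30.7 CPM in KO IMQ ganglia, against 12.7, 11.1 and 11.1 CPM in KO vehicle ganglia. It had 40.8 and 39.1 CPM in WT IMQ ganglia, against 12.8, 12.1 and 9.96 CPM in WT vehicle ganglia. The IMQ libraries lay far above the vehicle libraries in both genotypes. It rose by 1.52 ± 0.14 on the log2 scale in KO ganglia (edgeR adjusted p = 0.00103) and by 1.78 ± 0.14 in WT ganglia (edgeR adjusted p = 0.000241). It alone among the 10 genes kept both calls under all 11 alternatives run for each comparison, with the highest adjusted p at 0.0232 in KO ganglia and 0.0056 in WT ganglia.

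Myd88, the shared adaptor gene, had 14.0 and 12.9 CPM in KO IMQ ganglia, against 11.3, 9.41 and 10.1 CPM in KO vehicle ganglia. It had 14.4 and 14.1 CPM in WT IMQ ganglia, against 10.4, 9.96 and 10.1 CPM in WT vehicle ganglia. The groups did not overlap, but the log2 differences of 0.39 ± 0.12 in KO ganglia (edgeR adjusted p = 0.333) and 0.49 ± 0.12 in WT ganglia (edgeR adjusted p = 0.132) did not pass. The WT difference passed under 1 of the 11 alternatives, the gene length offset (edgeR adjusted p = 0.0394). Myd88 shares 290 exon bases with Acaa1a on the opposite strand; the library kit marks strand, but the strand setting of the counting is not given in the sources used here.

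**Figure D2:**
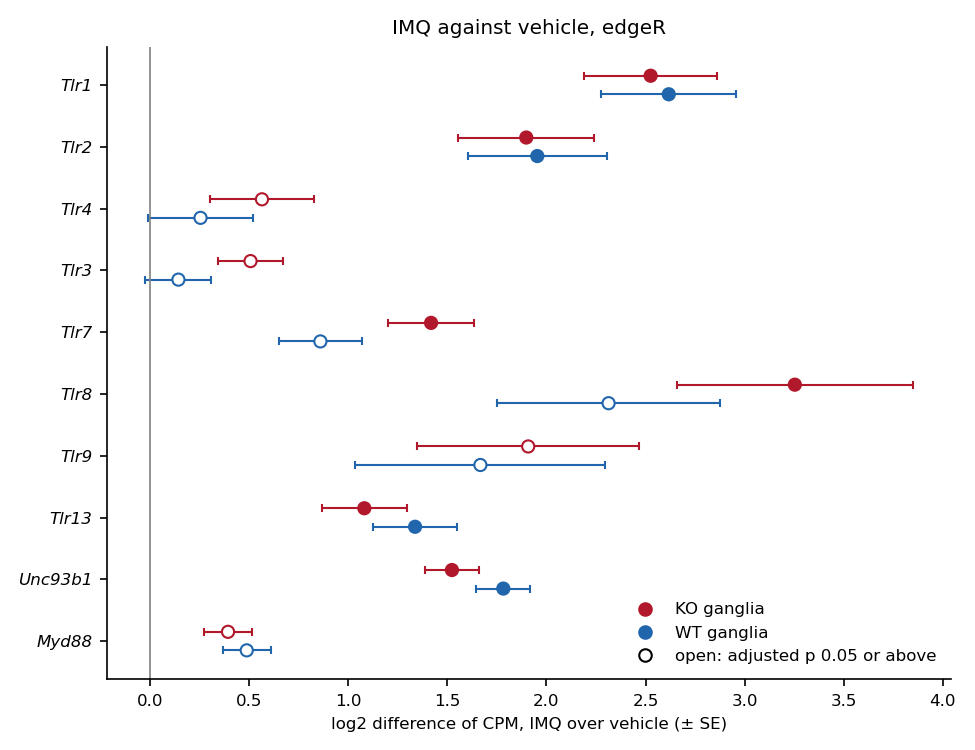
Log2 difference between IMQ and vehicle ganglia (x axis, points with SE whiskers from edgeR) for each gene (y axis), KO above WT, filled where the adjusted p was under 0.05. Tlr1, Tlr2, Tlr13 and Unc93b1 are filled in both genotypes, and all 20 points lie to the right of 0.

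Levels between genes were compared as CPM per kb of exon (lengths from GENCODE M21, build GRCm38). In vehicle ganglia Myd88 and Unc93b1 stood highest, at 3.99 ± 0.37 and 3.83 ± 0.31 CPM per kb in KO and 3.94 ± 0.09 and 3.84 ± 0.49 CPM per kb in WT ganglia (SD, n = 3 each). Tlr3 was the highest receptor gene there. Its share of the summed CPM per kb of the 8 receptor genes was 17.6% ± 5.38 in KO IMQ ganglia (SD, n = 2), against 33.0% ± 2.92 in KO vehicle ganglia (n = 3). In WT ganglia its share was 17.0% ± 0.376 with IMQ, against 35.4% ± 2.28 with vehicle. Tlr1 held 22.0% ± 8.06 in KO IMQ ganglia, against 10.5% ± 2.28 in KO vehicle ganglia. In WT ganglia Tlr1 held 22.4% ± 0.654 with IMQ, against 8.40% ± 1.75 with vehicle. Tlr7 held 11.9% ± 2.12 in KO IMQ ganglia, against 11.9% ± 0.59 in KO vehicle ganglia. In WT ganglia it held 13.0% ± 3.06 with IMQ, against 16.2% ± 2.92 with vehicle. The share of Tlr7 overlapped between IMQ and vehicle libraries in both genotypes, while its level in CPM did not. The summed level of the 8 receptors was 11.3 ± 1.34 CPM per kb in KO IMQ ganglia, against 4.16 ± 0.55 in KO vehicle ganglia, and 10 ± 1.18 in WT IMQ ganglia, against 4.38 ± 0.271 in WT vehicle ganglia.

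**Figure D3:**
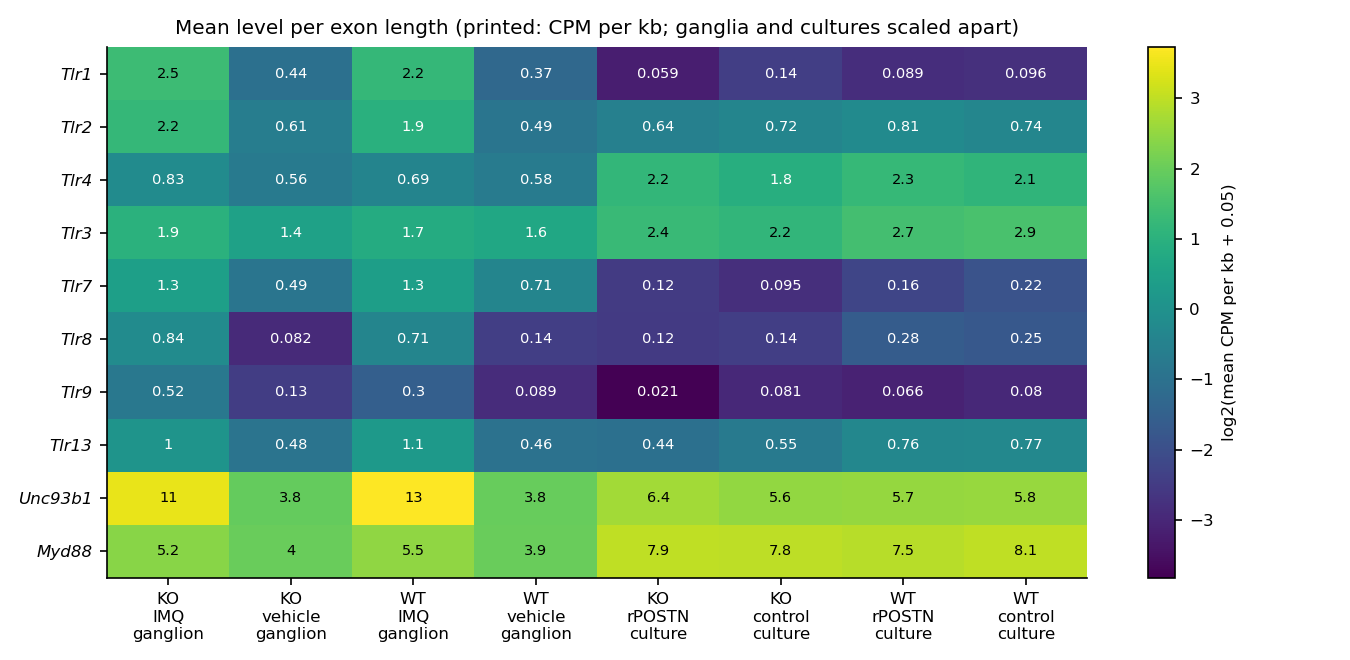
Mean CPM per kb of exon (printed in each cell, colour on a log2 scale) of the 10 genes (rows) in the 8 groups (columns); ganglia, WT cultures and KO cultures were scaled apart. Unc93b1 reaches 11 in KO IMQ and 13.2 in WT IMQ ganglia, and Tlr1, Tlr7 and Tlr9 are low in all 4 culture groups.

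Most macrophage markers moved in the same direction as these receptors. Of 12 macrophage markers, 9 were called higher with IMQ in each genotype. The log2 difference was positive for 12 of them in KO and for 11 in WT ganglia, where the lowest was -0.517. None of the markers was at 0 in any group. Their summed level was 422 to 483 CPM in KO IMQ ganglia, against 142 to 160 CPM in KO vehicle ganglia. It was 497 to 550 CPM in WT IMQ ganglia, against 142 to 172 CPM in WT vehicle ganglia. Adgre1, the F4/80 antigen, had a log2 difference of 3.05 ± 0.16 in KO and 3.34 ± 0.16 in WT ganglia, and Csf1r, the colony-stimulating factor receptor, of 1.21 ± 0.11 and 1.24 ± 0.11. The part of macrophage number in the receptor differences was not tested.

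Set against Csf1r in the same library, a ratio chosen after the values were seen, the genes showed 4 patterns. The ratios of Tlr1, Tlr8 and Unc93b1 were higher in every IMQ library than in every vehicle library of both genotypes, and those of Tlr2 and Tlr9 were so in KO ganglia and overlapped in WT ganglia. Among all other genes tested, 0.686% had a higher ratio with no overlap in KO ganglia and 0.855% in WT ganglia. For Unc93b1 the ratio was 0.588 ± 0.0235 in KO IMQ ganglia, against 0.478 ± 0.064 in KO vehicle ganglia, and 0.675 ± 0.0528 in WT IMQ ganglia, against 0.462 ± 0.0199 in WT vehicle ganglia. The ratios of Tlr3, Tlr4 and Myd88 were lower in every IMQ library of both genotypes, as were those of 91.9% of all genes in KO ganglia and 93.2% in WT ganglia, so this separation is not particular to them. For Myd88 the ratio was 0.238 ± 0.00282 in KO IMQ ganglia, against 0.424 ± 0.0626 in KO vehicle ganglia, and 0.24 ± 0.0153 in WT IMQ ganglia, against 0.406 ± 0.0336 in WT vehicle ganglia. The ratios of Tlr7 and Tlr13 overlapped between IMQ and vehicle in both genotypes. Tlr7 stood at 0.0957 ± 0.0126 of Csf1r in KO IMQ ganglia, against 0.0826 ± 0.0107 in KO vehicle ganglia, and at 0.0887 ± 0.0148 in WT IMQ ganglia, against 0.115 ± 0.0156 in WT vehicle ganglia. The pattern depends on the marker: set against Adgre1, 8 of 10 ratios were lower in every IMQ library in each genotype and the other 2 overlapped (Tlr1 and Tlr8 in KO, Tlr8 and Tlr9 in WT ganglia), where 99.0% of all genes in KO ganglia and 99.4% in WT ganglia had a lower ratio with no overlap.

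**Figure D4:**
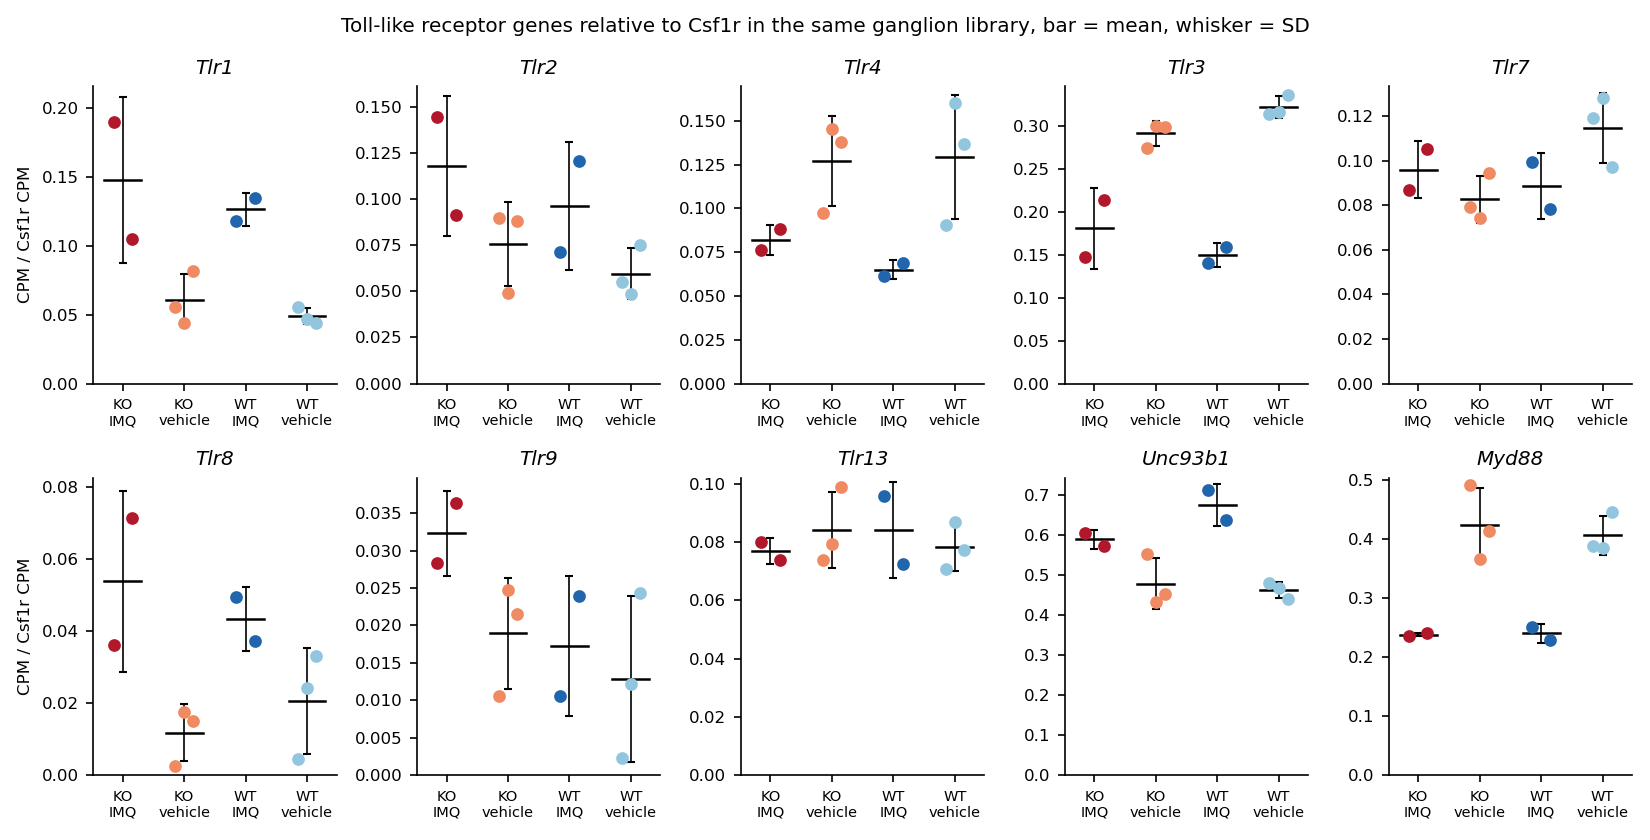
CPM of each gene divided by the CPM of Csf1r in the same library (y axis) in KO IMQ, KO vehicle, WT IMQ and WT vehicle ganglia, with 1 point per library, mean bar and SD whisker. Tlr1, Tlr8 and Unc93b1 lie higher with IMQ, Tlr3, Tlr4 and Myd88 lower, and Tlr7 and Tlr13 overlap, in both genotypes.

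Other cell types were followed by the same marker lists. The 4 monocyte markers summed to 17.1 to 32.1 CPM in KO IMQ ganglia, against 13.9 to 44.2 CPM in KO vehicle ganglia. In WT ganglia they summed to 29.6 to 33.9 CPM with IMQ, against 14.9 to 19.5 CPM with vehicle. Their median log2 difference was 0.22 in KO ganglia with none called and 0.92 in WT ganglia, where 1 (Ccr2) was called higher. None of the 4 was called for the difference of IMQ effects between KO and WT. The 5 neutrophil markers summed to 22.4 to 61.8 CPM in KO IMQ ganglia, against 20.4 to 256 CPM in KO vehicle ganglia, and to 81.8 to 107 CPM in WT IMQ ganglia, against 50.3 to 69.4 CPM in WT vehicle ganglia. The 10 sensory neuron markers had a median log2 difference of -0.09 in KO and 0.05 in WT ganglia, with none called. B cells and plasmacytoid dendritic cells are types known for Tlr9 and Tlr7. All 5 B cell markers and 4 of 5 plasmacytoid dendritic cell markers passed the low-count filter, and none was called in either genotype. The plasmacytoid list also averaged 160 to 172 CPM in the culture groups, with Siglech at 0 in both control groups. Its level is therefore not particular to that cell type. The log2 difference was negative for 6 of 6 Schwann cell markers and 5 of 5 erythroid markers in each genotype, with none called. The median of the Schwann cell markers was -0.31 in KO and -0.82 in WT ganglia, and that of the erythroid markers -2.95 and -1.82. Schwann cell markers summed to 5110 to 5690 CPM in KO IMQ ganglia, against 6150 to 7660 CPM in KO vehicle ganglia, and to 5200 to 7290 CPM in WT IMQ ganglia, against 9270 to 14400 CPM in WT vehicle ganglia. Erythroid markers summed to 20.1 to 26.6 CPM in KO IMQ ganglia, against 39.8 to 465 CPM in KO vehicle ganglia, and to 30.4 to 45.0 CPM in WT IMQ ganglia, against 106 to 139 CPM in WT vehicle ganglia. The part of these cell types in the receptor differences was not tested.

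The 5 genes whose centred log2 CPM over the 10 ganglion libraries was most like that of Tlr7, among 15054 genes, were Ifi207, Ms4a6b, Fgd3, Apobec1 and Cd68, with root-mean-square differences between 0.118 and 0.236. Ms4a6b averaged 14.3 CPM in KO IMQ ganglia, against 5.32 CPM in KO vehicle ganglia, and 13.9 CPM in WT IMQ ganglia, against 6.74 CPM in WT vehicle ganglia. Cd68 is a lysosomal protein used as a macrophage marker. For Tlr3 they were Scube3, C4b, Piezo1, Poc1b and C1s1, with differences between 0.0833 and 0.0987. C4b and C1s1 encode complement components and Piezo1 a mechanically gated ion channel. C4b averaged 107 CPM in KO IMQ ganglia, against 75.1 CPM in KO vehicle ganglia, and 95.3 CPM in WT IMQ ganglia, against 86.9 CPM in WT vehicle ganglia.

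Around the receptors, the other genes of the pathway moved unevenly with IMQ, and none of those listed was called lower. Of 13 accessory genes, 3 rose in KO ganglia and 2 in WT ganglia. Cd180, a receptor-like relative of TLR4, rose by 2.30 ± 0.25 in KO (edgeR adjusted p = 0.00208) and 2.47 ± 0.26 in WT ganglia (0.0012) on the log2 scale. Slc15a3, an endolysosomal peptide transporter, rose by 1.57 ± 0.22 in KO (edgeR adjusted p = 0.0072) and 1.41 ± 0.21 in WT ganglia (0.00994). Cd36, a scavenger receptor, was called in KO ganglia (0.99 ± 0.16, edgeR adjusted p = 0.0188). The median log2 difference of the list was 0.35 in KO and 0.37 in WT ganglia.

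Of 20 adaptors and kinases, 4 rose in KO ganglia and 2 in WT ganglia, with medians of 0.21 and 0.11. Pik3ap1, an adaptor to phosphoinositide kinase, rose by 2.53 ± 0.18 in KO and 2.76 ± 0.19 in WT ganglia. Ticam2, the TRAM adaptor of TLR4, rose by 2.28 ± 0.43 and 2.00 ± 0.40. Irak3, an inhibitory kinase-like protein, and Ikbke, a kinase that activates interferon regulatory factors, were called in KO ganglia at 1.11 ± 0.19 and 1.23 ± 0.24. Of 7 transcription factors, Irf7 and Irf8, both interferon regulatory factors, rose in each genotype. Irf7 rose by 1.70 ± 0.24 in KO and 1.67 ± 0.25 in WT ganglia, and Irf8 by 1.23 ± 0.21 and 1.70 ± 0.21.

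The list of 10 feedback inhibitors did not hold the inhibitory Irak3, which is given above with the kinases and was called in KO ganglia. None of the 10 was called in either genotype by edgeR. Tollip, the most abundant, had log2 differences of 0.10 ± 0.12 in KO and -0.06 ± 0.12 in WT ganglia. Of 9 other nucleic acid sensors, Rigi (0.89 ± 0.13) and Aim2 (1.42 ± 0.26) were called in KO ganglia and Sting1 (1.46 ± 0.20) in WT ganglia. Of 6 inflammasome genes, 0 were called in KO ganglia and Pycard (1.98 ± 0.35) and Gsdmd (0.78 ± 0.14) in WT ganglia. None of these calls in one genotype was shown to differ from the other, since 0 of 17197 genes passed the test of that difference. Of 10 cytokines, 5 passed the low-count filter and none was called in either genotype; Ccl2, the most abundant, differed by -0.68 ± 0.29 in KO and 0.12 ± 0.27 in WT ganglia. Of 4 remaining Toll-like receptors, Tlr5 and Tlr6 passed the filter and neither was called.

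The genotype comparisons share their libraries with the IMQ comparisons. In vehicle ganglia 0 of 10 genes differed between KO and WT by edgeR, 1 had an unadjusted p under 0.05 and DESeq2 called 0; 0.0116% of all genes were called. That gene was Tlr7, at 2.01 ± 0.27 CPM in KO vehicle ganglia, against 2.90 ± 0.61 CPM in WT vehicle ganglia, a log2 difference of -0.52 ± 0.20 (edgeR adjusted p = 1), and the libraries overlapped. In IMQ ganglia 0 of 10 differed by edgeR, none had an unadjusted p under 0.05 and DESeq2 called 0; 0.00581% of all genes were called. Tlr4 and Tlr9 were higher in both KO IMQ libraries than in both WT IMQ libraries, and Unc93b1 and Myd88 lower, where 16.2% and 17.0% of all genes separated in these ways. For Unc93b1 the log2 difference was -0.26 ± 0.15 (edgeR adjusted p = 0.997). The IMQ effect itself differed between KO and WT for 0 of 10 genes by edgeR, with none at an unadjusted p under 0.05 and 0 called by DESeq2, and 0% of all genes were called. The differences of the effects ran between -0.26 for Unc93b1 and 0.94 for Tlr8, whose SE was 0.86.

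The culture tables were scaled apart from the ganglion table and no test joins them, so their levels are set side by side only. Of the summed CPM per kb of the 8 receptors, Tlr3 held 40.3% in WT control cultures and 35.4% in WT vehicle ganglia, Tlr2 10.3% and 11.3%, Tlr13 10.7% and 10.4%, Tlr4 29.8% and 13.2%, Tlr7 3.04% and 16.2%, and Tlr1 1.33% and 8.40%. Tlr4 averaged 12.3 CPM in KO rPOSTN, 10.2 CPM in KO control, 12.9 CPM in WT rPOSTN and 11.9 CPM in WT control cultures, all above the 3.11 to 4.63 CPM means of the ganglia. Tlr7 averaged 0.511, 0.386, 0.663 and 0.91 CPM in the same order of groups, below every ganglion library. Ordered over the 8 groups, Tlr7 ran from KO IMQ and WT IMQ ganglia, which overlapped, through WT vehicle and KO vehicle ganglia, which overlapped, to the 4 culture groups, where each overlapped its neighbour. For Tlr3 the order ran from WT control cultures at 15.1 CPM to KO vehicle ganglia at 7.11 CPM, and each group overlapped the next.

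Macrophage markers in the cultures summed to 132 to 144 CPM in KO rPOSTN, 127 to 148 CPM in KO control, 153 to 166 CPM in WT rPOSTN and 157 to 174 CPM in WT control cultures. Csf1r lay between 3.29 and 8.13 CPM and Cx3cr1, the fractalkine receptor, at or below 0.653 CPM. Sensory neuron markers summed to 5310 to 6960 CPM over the 12 libraries.

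With recombinant POSTN, none of the genes that could be tested passed the threshold. In KO cultures 6 of the 10 passed the low-count filter and 0 were called by edgeR, with none at an unadjusted p under 0.05 and 0 called by DESeq2; 0% of 16756 genes were called. In WT cultures 8 passed and 0 were called by edgeR, with none at an unadjusted p under 0.05 and 0 called by DESeq2; 0% of 16639 genes were called. The difference of the rPOSTN effects between KO and WT cultures was called for 0 of 8 genes by edgeR, with none at an unadjusted p under 0.05, 0 by DESeq2 and 0% of all genes. Without the third KO culture of each treatment, a choice made after seeing the data, edgeR called 0 of 6 genes for rPOSTN in KO cultures and 0 of 8 for the difference of effects, with none at an unadjusted p under 0.05 in either. The KO log2 differences then ran between -0.36 for Tlr13 and 0.26 for Tlr4. Tlr7, Tlr8 and Tlr13 are X-linked, and the sexes differ among the cultures as given above.

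Tlr4 had 12.5, 10.5 and 14.1 CPM in KO rPOSTN cultures, against 10.2, 8.89 and 11.6 CPM in KO control cultures. It had 12.9, 12.6 and 13.3 CPM in WT rPOSTN cultures, against 12.6, 11.5 and 11.6 CPM in WT control cultures. The groups overlapped in both genotypes, and the log2 differences were 0.27 ± 0.19 in KO and 0.12 ± 0.10 in WT cultures, with edgeR adjusted p of 1 and 0.999. Within same-numbered pairs Tlr4 was higher with rPOSTN in 6 of 6, noted after the values were seen, as were 1.46% of the 16256 genes tested in both genotypes. With the replicate number as a block its log2 differences of 0.27 in KO and 0.12 in WT cultures did not pass (edgeR adjusted p of 0.999 and 0.829). At the other end, Tlr9 was higher with rPOSTN in 0 of 6 pairs and Tlr1 in 1 of 6. Neither gene passed the low-count filter in KO or WT cultures, and the share of all genes lower in every pair was not computed. Tlr3 had 15, 6.96 and 16.0 CPM in KO rPOSTN cultures, against 12.3, 8.62 and 13.2 CPM in KO control cultures. Its second library was the lowest in both KO groups. In WT cultures Tlr3 had 14.1, 15 and 13.8 CPM with rPOSTN, against 16.5, 14.1 and 14.5 CPM in control cultures. Unc93b1 had 19, 19.3 and 19.9 CPM in KO rPOSTN cultures, against 18.5, 13.9 and 18.9 CPM in KO control cultures. These groups did not overlap, as was so for 2.43% of all genes in that direction, and the log2 difference of 0.18 ± 0.16 did not pass (edgeR adjusted p = 1).

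Tlr7 had 0.328, 0.111 and 1.09 CPM in KO rPOSTN cultures, against 0.103, 0.485 and 0.57 CPM in KO control cultures, from 29 and 22 counts in all. It had 0.6, 0.702 and 0.686 CPM in WT rPOSTN cultures, against 0.926, 1.42 and 0.387 CPM in WT control cultures. The groups overlapped in both genotypes. Its WT log2 difference was -0.41 ± 0.43 (edgeR adjusted p = 0.999). Tlr8 had 0 counts in the second KO rPOSTN library, where a count of 0 allows up to 0.167 CPM (3 counts, counting error only). Tlr1 and Tlr9 stayed at or below 0.673 CPM in every culture library.

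**Figure D5:**
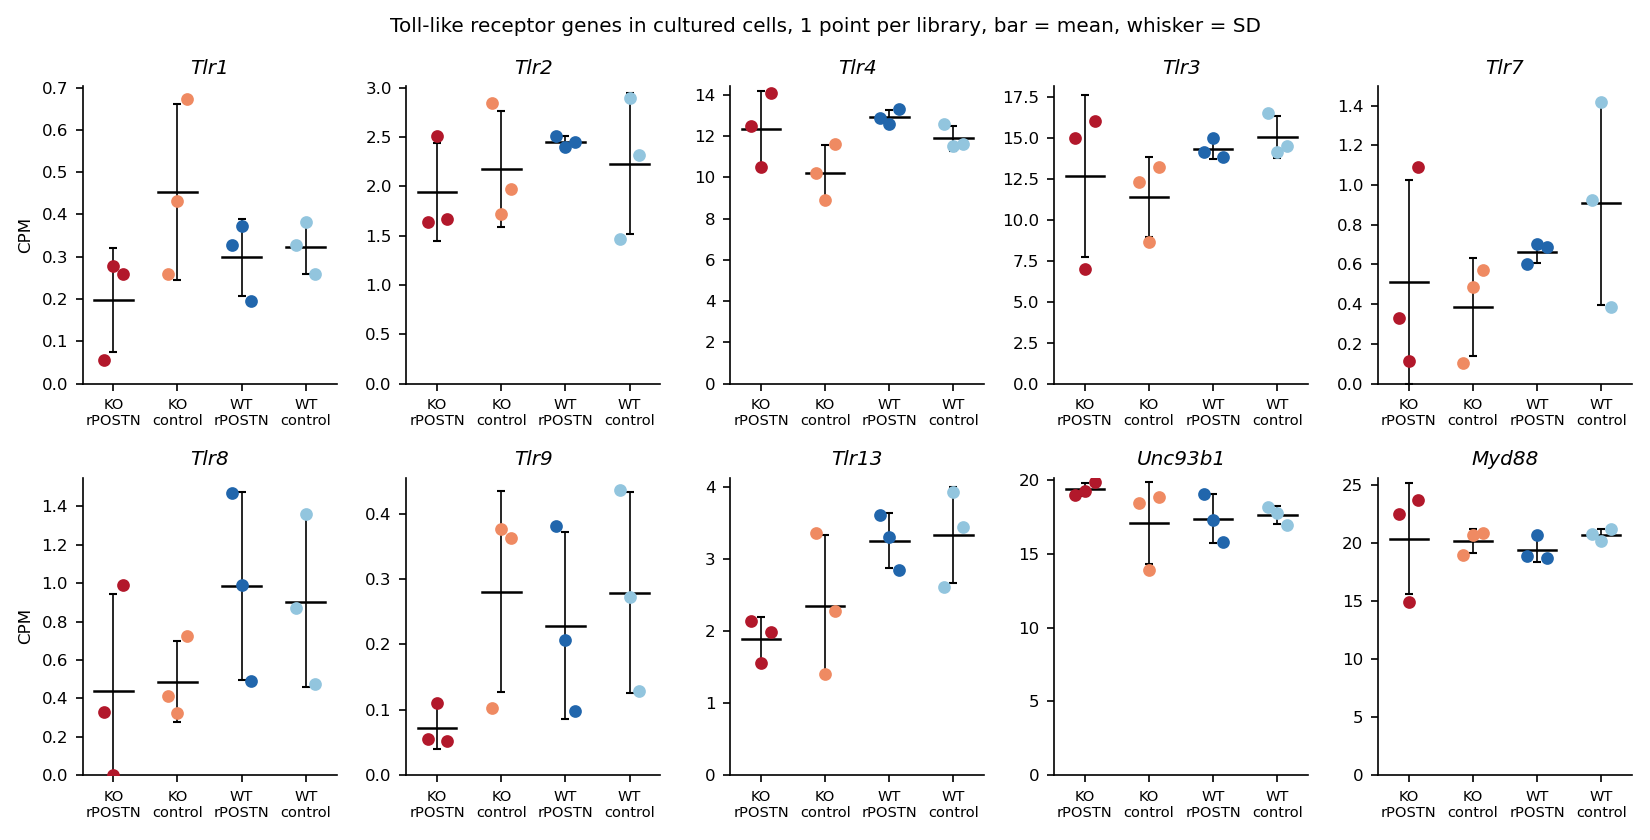
CPM of each gene (y axis, one scale per panel) in KO rPOSTN, KO control, WT rPOSTN and WT control cultures, with 1 point per library, the bar at the mean and the whisker showing the SD. The rPOSTN and control points overlap in each genotype for every gene except Unc93b1 in KO cultures, and the second KO rPOSTN library is the lowest for Tlr3 and Myd88.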

How the data were processed

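Whole-number read counts, not normalized, were deposited by the authors in 3 tables keyed by Ensembl ID (ganglia, WT cultures, KO cultures), per the file headers. Per the labels' protocols, libraries were poly-A selected, strand-marked by dUTP and read in pairs. Bowtie2 2.2.3, TopHat2, HISAT2 2.1.0 and the build GRCm39 are listed in the submitters' processing notes; what counted the reads, and on which strand, is not given in the sources used here. Gene names and exon lengths for 55141 of 55487 genes came from GENCODE M21 (GRCm38), matched by Ensembl ID.

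Counts were filtered (filterByExpr), scaled by TMM and tested with edgeR 4.0.16 (robust quasi-likelihood, Benjamini-Hochberg over all genes tested, threshold 0.05) in R 4.3.3; figures used Python 3.11.15. The 4 ganglion groups shared 1 fit, each culture table had its own, and the difference of rPOSTN effects joined both culture tables. The SE is the log2 difference over the root of F. CPM are TMM-scaled, and SDs are over libraries. Totals of 16666489 to 24118303 counts per library limit genes under about 1 CPM. Alternatives were DESeq2 1.42.0, RLE factors, no filter, only the compared groups, a gene length offset (loess span 0.5), the replicate number as a block, each library left out and, chosen after seeing the data, the third KO culture of each treatment left out. The test was tested on simulated data for IMQ in WT ganglia, over 17197 genes. Of 100 genes changed 2-fold 63% were called, and of 100 genes changed 4-fold 94%. The changed genes were drawn only from those with a mean above 1 CPM, so these shares do not cover lower genes.

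Same-numbered libraries deviated together between KO and WT vehicle ganglia (correlations 0.872, 0.83 and 0.161, the third correlating 0.728 with another number). They also did so between rPOSTN and control KO cultures (0.39, 0.714, 0.634) and WT cultures (0.377, 0.368, 0.678). In WT cultures the first and the second correlated 0.37 and 0.364 with another number. In the cultures the third libraries also matched across treatments, being female in WT and highest in Postn and Y-linked reads in KO. The numbers may thus pair these libraries. The main tests did not use such a pairing, which entered only in the alternative with the replicate number as a block. IMQ and vehicle ganglia share 2 numbers (correlations 0.754 and 0.76 in KO, 0.237 and 0.223 in WT). With 2 IMQ libraries the deviations from the group mean mirror each other, so these correlations cannot show whether the numbers pair them. No replicate libraries matched within counting noise (chi-square per degree of freedom 2.49 to 69.9). The genes and lists were chosen with earlier results of these data known. Named were all 10 genes and the 5 genes most like Tlr7 and Tlr3 among genes of at least 1 CPM. From each list of pathway genes the genes called were named (at most the 5 with the smallest p), or with none called the most abundant. From the cell type lists only some genes were named, among them Adgre1 and Csf1r, which the ratios use. Cell type lists not described in the text had no member called lower. Of them the T cell marker Cd8a was called higher in WT IMQ ganglia.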

Additional observations from a re-analysis of the deposited data

How the results depend on the processing

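Under the 11 alternatives, the 110 values of the 10 genes for IMQ in KO ganglia held direction and side of the threshold in 87 cases, lost the call in 22 and gained it in 1; in WT ganglia the numbers were 97, 8 and 4, with 1 change of sign. In KO ganglia, fitting the compared groups alone called 1 of the 10 genes (Unc93b1) in place of 6, and 58 genes in place of 190; leaving out single libraries called 1 to 4 of the 10 and 56 to 165 genes. In WT ganglia DESeq2 called 358 genes in place of 224, and leaving out single libraries called 1 to 3 of the 10 in place of 4, and 82 to 160 genes. The cause was not tested. For the difference of IMQ effects, DESeq2 called 5 genes, no filter 2 and leaving out libraries 0 to 1, in place of 0. For KO against WT, vehicle ganglia gave 30 genes with DESeq2, 22 with no filter, 1 with the compared groups alone and 0 to 2 with libraries left out, in place of 2; IMQ ganglia gave 4, 2, 5 and 0 to 1, in place of 1. None of the 10 genes was called in these fits. In WT cultures no filter called 2 genes, in place of 0.

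With the replicate number as a block, the WT cultures gave 8 genes (7 with the length offset added) in place of 0, none among the 10. The block gave 239 genes for IMQ in KO ganglia and 280 in WT ganglia, with 6 and 5 of the 10 genes called (Tlr9 gained and Tlr13 lost in KO, Tlr8 gained in WT), 3 for KO against WT in vehicle ganglia, and 0 elsewhere except 1 for KO against WT in IMQ ganglia. It turned the log2 difference of Unc93b1 for KO against WT in vehicle ganglia to 0.000526, and that of Myd88 for rPOSTN in KO cultures to -0.00897 (-0.012 with the length offset). It changed no other sign.

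Leaving out libraries turned the sign of uncalled log2 differences only. For IMQ in WT ganglia the lowest and highest values were -0.00519 and 0.28 for Tlr3. For the KO minus WT difference of IMQ effects the lowest and highest values were -0.681 and 0.324 for Tlr1, -0.521 and 0.427 for Tlr2, -0.457 and 0.983 for Tlr9. For KO against WT in vehicle ganglia the lowest and highest values were -0.0375 and 0.434 for Tlr1, -0.214 and 0.174 for Tlr4, -0.0762 and 0.177 for Tlr13, -0.114 and 0.0675 for Unc93b1, -0.0643 and 0.0771 for Myd88. For KO against WT in IMQ ganglia the lowest and highest values were -0.42 and 0.585 for Tlr1, -0.228 and 0.719 for Tlr2, -0.0237 and 0.369 for Tlr3, -0.0773 and 0.166 for Tlr7, -0.26 and 0.582 for Tlr8. For rPOSTN in WT cultures the lowest and highest values were -0.079 and 0.35 for Tlr2, -0.81 and 0.0638 for Tlr7, -0.229 and 0.567 for Tlr8, -0.176 and 0.0899 for Tlr13, -0.0938 and 0.0436 for Unc93b1. For rPOSTN in KO cultures the lowest and highest values were -0.396 and 0.0673 for Tlr2, -0.0511 and 0.448 for Tlr3, -0.568 and 0.0389 for Tlr13, -0.109 and 0.195 for Myd88, which was -0.0824 without the third KO culture of each treatment. For the KO minus WT difference of rPOSTN effects the lowest and highest values were -0.362 and 1.31 for Tlr7, -1.67 and 0.303 for Tlr8, -0.537 and 0.0694 for Tlr13, -0.0205 and 0.292 for Myd88. Genes under about 1 CPM (Tlr8 and Tlr9 in vehicle ganglia; Tlr1, Tlr7, Tlr8 and Tlr9 in cultures) are limited by depth, and each IMQ group has 2 libraries.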

Other observations

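The second KO rPOSTN culture, and less so the second KO control culture, stood apart in some genes downstream of the receptors. The second KO rPOSTN culture also differed from its replicates across genes, so this is not particular to those named here. Its chi-square per degree of freedom was 41.7 against the first and 39.3 against the third KO rPOSTN library, beside 22.8 between the first and the third. Of 10 feedback inhibitors, 6 had a positive rPOSTN log2 difference in KO cultures, with a median of 0.0251. Tnfaip3, which encodes the A20 inhibitor of NF-kB signalling, had 33.6 CPM in the second KO rPOSTN culture and 16.5 CPM in the second KO control culture, against 7.04 to 11 CPM in the other 10 culture libraries. Nfkbia, which encodes the inhibitor IkB alpha, had 90.7 and 56.0 CPM in those 2 libraries, against 36.2 to 49.0 CPM in the other 10. Cxcl2, a neutrophil chemokine, had 10.4 and 3.02 CPM there, against 0.273 to 0.981 CPM in the other 10. The same 2 libraries held the lowest Tlr3 values, 6.96 and 8.62 CPM. These genes were chosen after their values were seen, and no test was made.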
